A study of Mus musculus with 6 samples.

Results

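This section describes 10 genes of the Notch pathway: the receptors Notch1, Notch2 and Notch3, the ligands Jag1, Jag2 and Dll1, the targets Hes1, Hey1 and Nrarp, and the receptor modifier Lfng. They were chosen by name, with earlier results of these data known, and all 10 were among the 22180 genes with a value. RNA was read on 6 Affymetrix arrays, from murine mammary stem cells kept as organoids, that is, epithelial cells growing in 3 dimensions. Of these, 3 arrays were from wild-type (WT) cells and 3 from cells labelled MLL3-null, in lines made by CRISPR, and the comparison asks about the effect of MLL3 loss. MLL3 is the enhancer-acting histone methyltransferase made from Kmt2c. The labels call each array a biological replicate without saying if a group holds 1 line or several, so p-values here reflect only the spread among these samples, which may be technical. The labels give no strain, age or further treatment.

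Notch is a receptor that is cut when a ligand of the Jagged or Delta-like family on a neighbouring cell binds it. The freed intracellular part enters the nucleus, joins the DNA-binding protein RBPJ and switches on targets such as the HES and HEY repressors. LFNG adds a sugar to the receptor and so changes which ligands activate it, and NRARP is a target that dampens the signal. In the mammary gland the pathway is known for its part in luminal cell fate, with ligands and receptors unevenly divided between basal and luminal cells.

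For none of the 10 genes was the difference between Mll3-null and WT cells large against the spread between arrays. With limma's moderated test and Benjamini-Hochberg adjustment over all genes, 0 of the 10 genes passed an adjusted p of 0.05, as did 0% of all genes tested. At an unadjusted p under 0.05 there were also 0 of 10, against 4.93% of all genes. The groups overlapped for every one of the 10, while 10.7% of all genes had groups that did not overlap. The arrays of a group differed among themselves, by more in Mll3-null than in WT cells for 8 of the 10 genes (by SD), Hey1 and Notch3 being the exceptions. The share of all genes with a wider SD in Mll3-null cells was not counted, and Mll3-null replicate 3 stood apart over all genes, as described below. Jag1 and Jag2 were far lower on Mll3-null replicate 3 than on any other array, and Dll1, Hes1 and Hey1 were above all WT arrays on Mll3-null replicates 2 and 3 but not on replicate 1.

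The starts of the Jagged genes and of Lfng are shown because the former were low on the same array and the latter alone held the core letters bound by RBPJ. RefSeq promoter sequences of build GRCm38.p6 matched 8 of the 10 genes, with 9 annotated starts, 2 of them for Dll1. The matches lacked Hes1 and Hey1. Each sequence is the 250 bases before the annotated start on the gene's own strand, and capitals mark TGGGAA, the core of the RBPJ motif, on either strand.
Jag1 (chr2:137116521-137116770, minus strand): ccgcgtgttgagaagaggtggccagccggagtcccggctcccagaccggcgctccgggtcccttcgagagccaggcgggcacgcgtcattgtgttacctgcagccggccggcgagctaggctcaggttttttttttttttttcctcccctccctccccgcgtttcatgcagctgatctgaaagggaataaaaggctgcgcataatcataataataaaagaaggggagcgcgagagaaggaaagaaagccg
Jag2 (chr12:112929496-112929745, minus strand): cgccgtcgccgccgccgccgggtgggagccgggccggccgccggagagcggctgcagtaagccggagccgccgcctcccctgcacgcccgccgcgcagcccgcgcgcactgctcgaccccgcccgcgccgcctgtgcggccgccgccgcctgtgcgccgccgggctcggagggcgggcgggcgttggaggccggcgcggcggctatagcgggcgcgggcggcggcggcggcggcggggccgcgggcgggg
Lfng (chr5:140607091-140607340, plus strand): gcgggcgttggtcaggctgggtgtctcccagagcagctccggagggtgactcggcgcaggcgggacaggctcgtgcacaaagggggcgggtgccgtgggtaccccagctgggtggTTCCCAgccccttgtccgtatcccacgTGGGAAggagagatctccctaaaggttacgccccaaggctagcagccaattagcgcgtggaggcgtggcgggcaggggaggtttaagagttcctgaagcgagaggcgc
The Jagged sequences differed in base composition, with 57.2% G and C before Jag1 and 87.2% before Jag2. TGGGAA occurred in 1 of the 9 sequences, that of Lfng, which held it 2 times, starting 135 bases before the start on the opposite strand and 108 bases before it on the gene's strand. Over all 32851 promoters of this length in the table, 21.6% held these letters. The E-box letters CACGTG, which HEY proteins are known to bind, occurred in 2 of the 9 (Nrarp and Lfng) and in 6.02% of all promoters, and in Lfng they overlapped the nearer TGGGAA. A match describes letters only and is no evidence of binding.

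Mll3-null replicate 3 stood apart from the other arrays as a whole. On it 123 genes lay more than 1 log2 unit above all 5 other arrays and 294 more than 1 unit below, against at most 33 and 24 for any other array. The cells carried the markers of mammary epithelium: Krt14 was at 11.74 to 12.43 on the other 5 arrays and Epcam at 10.72 to 10.94 on all 6. Of 13 basal and myoepithelial markers, 7 were more than 1 log2 unit lower on Mll3-null replicate 3 than on every other array, Krt14 among them at 6.65 and Trp63, a basal transcription factor, at 5.02 against 7.86 to 8.84. A further basal marker, the oxytocin receptor gene Oxtr, was more than 1 unit higher there (markers named after their values were seen). The rest of the basal list, Krt15, Myh11, Mylk, Cnn1 and Itgb1, did neither. Itgb1 was at 11.14 there against 11.03 to 11.38 on the other 5 arrays. Myh11, Mylk and Cnn1 had low means over all arrays, 5.17, 4.72 and 4.51. The mean of the basal list was 7.87 to 8.31 on the WT arrays, 8.26 and 8.39 on Mll3-null replicates 1 and 2, and 6.24 on replicate 3. The markers of fibroblasts, endothelium, immune cells and adipocytes had array means between 3.71 and 4.30 on all arrays. In a bulk sample fewer cells of a type and less RNA per cell cannot be told apart. The targeted gene Kmt2c had a WT mean of 6.01 ± 0.55 and an Mll3-null mean of 6.11 ± 0.29 (SD, n = 3 arrays per group). Its probe set cannot be placed against the altered part of the gene from the sources used here, so its level is no check of the labels.

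**Figure D1:**
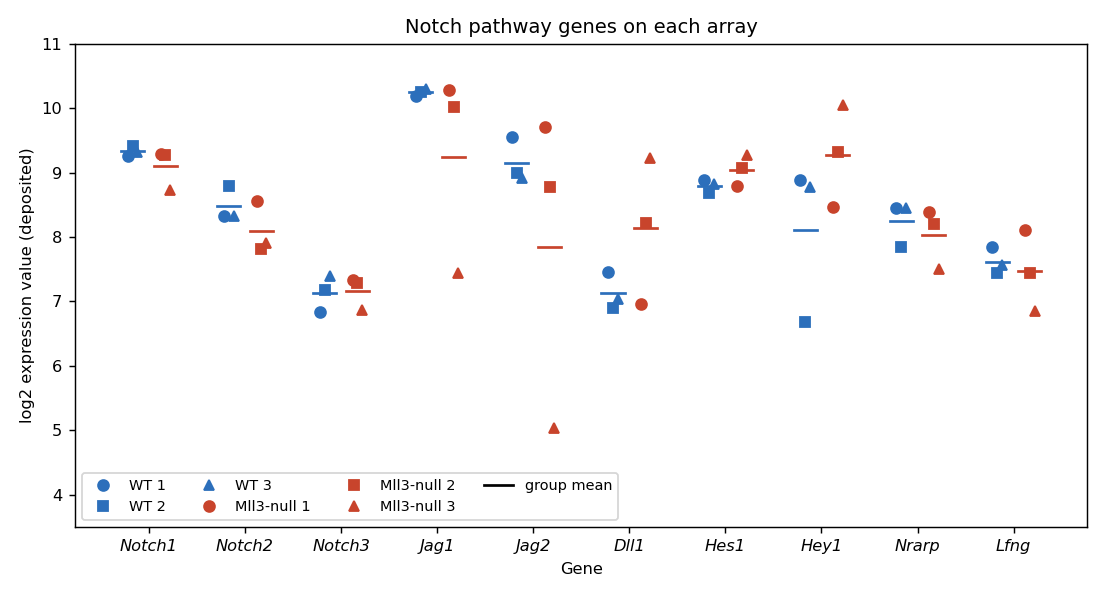
Deposited log2 values (vertical axis) of the 10 genes (horizontal axis) on each array, with WT in blue and Mll3-null in red, the marker shape giving the replicate and the short line the group mean. Jag1 at 7.44 and Jag2 at 5.03 on Mll3-null replicate 3 sit far below the other 5 arrays, and Hey1 at 6.68 on WT replicate 2 sits below the other arrays.

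The receptors differed by less than 1 log2 unit over the 6 arrays. Notch1 was at 9.26, 9.41 and 9.32 on WT replicates 1 to 3 and at 9.29, 9.28 and 8.73 on Mll3-null replicates 1 to 3. Mll3-null replicate 3 was below the other arrays, which lay within 0.15 of each other, so the groups overlapped. The difference, Mll3-null minus WT, was -0.23 ± 0.17 on the log2 scale (SE, 95% interval -0.63 to 0.17, limma adjusted p = 0.84), and it was -0.044 without Mll3-null replicate 3. Notch2 was at 8.33, 8.79 and 8.32 in WT and at 8.56, 7.81 and 7.90 in Mll3-null cells. Mll3-null replicates 2 and 3 were below all WT arrays and replicate 1 was within their range. The Notch2 difference was -0.39 ± 0.23 (95% interval -0.95 to 0.17, limma adjusted p = 0.84), and it ran from -0.62 without Mll3-null replicate 1 to -0.24 without Mll3-null replicate 2 and -0.23 without WT replicate 2. The mean of 10 luminal markers was also lower on Mll3-null replicates 2 and 3 than on the WT arrays. It was 9.43, 9.30 and 9.67 in WT and 9.42, 8.82 and 9.15 in Mll3-null cells. The markers did not all move this way. On Mll3-null replicate 3, 2 of the 10 were at their lowest. Krt8 and Krt18 were at their highest there, 10.57 and 11.44. Cldn4 was at 6.78 and 6.89 on Mll3-null replicates 2 and 3, against 8.24 to 9.28 in WT. Krt7 was at 9.40 and 9.57 there, against 10.63 to 10.85 in WT (all 4 named after their values were seen). By group means 3 of the 10 were higher and 7 lower in Mll3-null cells. The mean of 6 hormone-sensing markers was 6.76 to 7.40 in WT, 7.29 and 7.30 on Mll3-null replicates 1 and 3, and 6.15 on replicate 2. The part of these markers in the level of Notch2 was not tested. Notch3, a receptor that is also known as a Notch target, was at 6.84, 7.17 and 7.40 in WT and at 7.34, 7.28 and 6.86 in Mll3-null cells. Its Mll3-null values all lay within the WT range, with a difference of 0.02 ± 0.19 (95% interval -0.43 to 0.48, limma adjusted p = 0.98). The sign of the Notch3 difference turned without WT replicate 1 (-0.12) and also without either of Mll3-null replicates 1 (-0.065) and 2 (-0.035).

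The Jagged ligands, whose promoters are printed with that of Lfng, were far lower on 1 array than on the other 5. Jag1 was at 10.20, 10.25 and 10.30 in WT cells, a spread of 0.10, and at 10.28, 10.02 and 7.44 on Mll3-null replicates 1 to 3. On Mll3-null replicate 3 it was 7.01-fold below the WT mean, while replicate 1 lay within the WT range and replicate 2 was 1.17-fold below the mean. The group difference of -1.004 ± 0.71 (95% interval -2.72 to 0.71, limma adjusted p = 0.84) shrank to -0.10 ± 0.12 without Mll3-null replicate 3 and was -1.52 without replicate 1. Jag2 was at 9.56, 8.997 and 8.91 in WT and at 9.72, 8.77 and 5.03 in Mll3-null cells. Its value on Mll3-null replicate 3 was 17.4-fold below the WT mean, and replicate 1 was the highest of the 6 arrays. The Jag2 difference was -1.32 ± 1.13 (95% interval -4.03 to 1.40, limma adjusted p = 0.85), and without Mll3-null replicate 3 its sign turned, to 0.089 ± 0.32, while without replicate 1 it was -2.25. Both ligand genes were thus low on the array where 7 of 13 basal markers were low, and the part of the basal markers in their levels was not tested.

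Dll1, the Delta-like ligand, went the other way. It was at 7.46, 6.89 and 7.04 on WT replicates 1 to 3 and at 6.96, 8.22 and 9.23 on Mll3-null replicates 1 to 3. Mll3-null replicate 2 was 2.13-fold and replicate 3 was 4.29-fold above the WT mean, whereas replicate 1 fell inside the WT range. The difference was 1.01 ± 0.54 (95% interval -0.28 to 2.29, limma adjusted p = 0.84). It was 0.46 ± 0.38 with Mll3-null replicate 3 left out and 1.60 ± 0.32 with replicate 1 left out instead, where the unadjusted p was 0.0028 and the adjusted p 0.20 (limma). Small p-values were common with replicate 1 left out: 2742 of all 22180 genes had an unadjusted limma p under 0.05, against 1093 with all arrays. Dll1 alone among the 10 genes had a second probe set, which read 5.04, 5.12 and 5.03 in WT and 5.16, 5.26 and 5.67 in Mll3-null cells. On this probe set the lowest Mll3-null array exceeded the highest WT array, 5.16 against 5.12, with a difference of 0.30 ± 0.15 and an unadjusted p of 0.088 (limma). The 2 probe sets thus shared the order of the Mll3-null arrays but not the overlap of the groups.

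**Figure D2:**
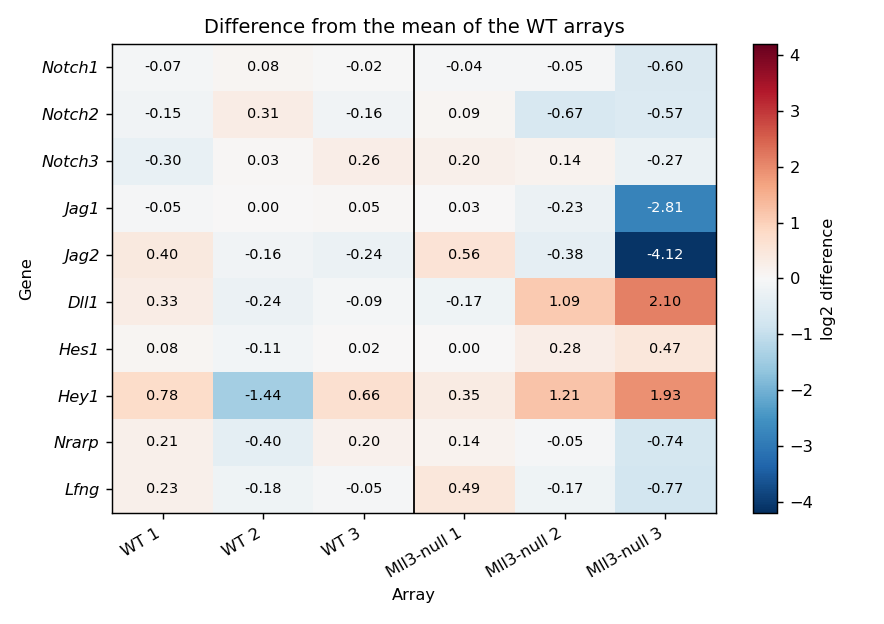
Each cell gives the log2 value of a gene (rows) on an array (columns) minus the mean of the 3 WT arrays, with red for higher and blue for lower. The column of Mll3-null replicate 3 holds the widest differences for both Jagged ligands (-2.81 and -4.12) and for Dll1 (2.10), and Mll3-null replicate 1 is at most 0.56 from the WT mean for all 10 genes.

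Of the targets, Hes1 and Hey1 followed the order of Dll1 among the Mll3-null arrays. Hes1, a repressor of differentiation genes, was at 8.88, 8.69 and 8.82 in WT and at 8.80, 9.07 and 9.27 in Mll3-null cells. Mll3-null replicates 2 and 3 were 1.21-fold and 1.39-fold above the WT mean, and replicate 1 was level with it. The Hes1 difference was 0.25 ± 0.14 (95% interval -0.08 to 0.58, limma adjusted p = 0.84) and 0.14 ± 0.13 without Mll3-null replicate 3. Hey1, a related repressor, was at 8.89, 6.68 and 8.78 in WT and at 8.46, 9.32 and 10.05 in Mll3-null cells. WT replicate 2 was more than 1 unit below the other arrays, and the span of the WT arrays, 2.21, was wider than the group difference. That difference was 1.16 ± 0.67 (95% interval -0.45 to 2.78, limma adjusted p = 0.84). It was 0.44 ± 0.45 without WT replicate 2, 0.78 ± 0.70 without Mll3-null replicate 3, and 0.06 ± 0.30 without both, an alternative chosen after seeing the data.

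Some luminal progenitor markers followed Hey1 and others did not. Of the 8 markers 4 had a higher and 4 a lower mean in Mll3-null cells, with a median difference of 0.03. The mean of the 8 markers was 8.58, 7.79 and 8.53 on WT replicates 1 to 3 and 7.98, 8.89 and 8.95 on Mll3-null replicates 1 to 3. Among them Elf5, a transcription factor of alveolar progenitors, was at 7.64, 6.002 and 7.39 in WT and 6.59, 8.51 and 9.02 in Mll3-null cells. Kit, a receptor tyrosine kinase, was at 6.78, 5.38 and 6.83 in WT and 5.92, 8.76 and 8.16 in Mll3-null cells. As for Hey1, WT replicate 2 was the lowest array and Mll3-null replicates 2 and 3 were the highest for 3 of the 8 (Elf5, Kit and Cxcr4). Aldh1a3, Cd14 and Ehf did not have this order. Itga2 and Lif went the other way, Itga2 at 8.52 and 8.31 on Mll3-null replicates 2 and 3 against 9.70 to 10.39 elsewhere, and Lif at 8.34 on WT replicate 2, its highest array, and 7.09 on Mll3-null replicate 2, its lowest (these markers were singled out after their values were seen). The part of these markers in the level of Hey1 was not tested.

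Nrarp and Lfng did not share the order of Hes1 and Hey1. Nrarp was at 8.46, 7.85 and 8.44 in WT and at 8.39, 8.20 and 7.51 in Mll3-null cells. Mll3-null replicate 3 was the lowest array and replicates 1 and 2 lay within the WT range. The Nrarp difference was -0.22 ± 0.27 (95% interval -0.87 to 0.44, limma adjusted p = 0.88) and 0.046 without Mll3-null replicate 3. Lfng was at 7.84, 7.44 and 7.57 in WT and at 8.11, 7.45 and 6.85 in Mll3-null cells. Mll3-null replicate 1 was the highest and replicate 3 the lowest of the 6 arrays, so the Mll3-null arrays enclosed the WT range. The Lfng difference was -0.15 ± 0.31 (95% interval -0.89 to 0.59, limma adjusted p = 0.93) and 0.16 without Mll3-null replicate 3.

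By group means 4 of the 10 genes (Jag1, Jag2, Dll1 and Hey1) differed at least 2-fold, against 1.15% of all genes and 2.45% of the 6243 genes whose mean log2 value was at least 7, as it was for all 10. Without Mll3-null replicate 3 it was 0 of 10, against 0.451% of all genes and 0.673% of those with a mean of at least 7. It was 2 of 10 without WT replicate 2 (Jag1 and Jag2) or WT replicate 3 (Jag2 and Hey1), against 0.915% and 1.54% of all genes. It was 3 without Mll3-null replicate 2, against 1.29% of all genes. It was 4 without WT replicate 1 or Mll3-null replicate 1, against 1.42% and 2.88% of all genes. Jag1 and Dll1 sat on the 2-fold limit, at 2.006-fold and 2.008-fold with all arrays, so processing also changed the count. Quantile normalization put Jag1 under it (-0.99 log2 units), median centring Dll1 (0.98), and the mean of probe sets Dll1 (0.65). With array weights Jag1 (-0.53), Jag2 (-0.75) and Dll1 (0.98) were under it, and Hey1 was at 1.02. The share of all genes was not counted under these settings. Mll3-null replicate 3 was the lowest array for 5 of the 10 genes and the highest for 3, while it was lowest for 21.4% and highest for 24.4% of all genes, and lowest for 29% of those with a mean of at least 7. At least 2 of the 3 Mll3-null arrays exceeded every WT array for 3 of the 10 (Dll1, Hes1 and Hey1), close to the 23.5% of all genes. They lay below all WT arrays for another 3 (Notch2, Jag1 and Jag2), against 21.6%. The range from the lowest to the highest array had a median of 1.12 log2 units over the 10 genes, against 0.42 over all genes and 0.46 over those with a mean of at least 7. The limit of 7 was itself chosen with earlier results of these data known. In Mll3-null cells the mean was higher for 4 of the 10 and lower for 6, where 51.5% of all genes were higher, with a median difference of -0.18 against 0.01 over all genes. An exact two-sided permutation test of each gene over the 6 arrays gave p from 0.3 to 0.9, where 3 against 3 arrays cannot go below 0.1.

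Jag2 had the widest range of the 10 genes, 4.68 log2 units, and the genes with the most similar profile were sought over the 6 arrays. Likeness was measured as the root-mean-square distance between log2 profiles, each centred on its own mean, among 13369 genes with a mean of at least 4, where the median distance was 1.60. Jag2 varied mostly through its low value on Mll3-null replicate 3, so the measure mainly picks genes that were low on that array. There 294 genes were more than 1 log2 unit below all other arrays. The nearest 5 were Snai2 at 0.17, Pltp at 0.19, Emp3 at 0.25, Cdh3 at 0.27 and Fat2 at 0.28. Snai2 encodes a zinc finger repressor and is one of the 13 basal markers, Pltp a phospholipid transfer protein, Emp3 a membrane protein, Cdh3 P-cadherin, an adhesion protein of basal epithelium, and Fat2 a large cadherin. Snai2 was at 10.50, 10.01 and 9.74 in WT and at 10.53, 10.09 and 5.99 in Mll3-null cells. As for Jag2, its lowest array was Mll3-null replicate 3 and its highest Mll3-null replicate 1.

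**Figure D3:**
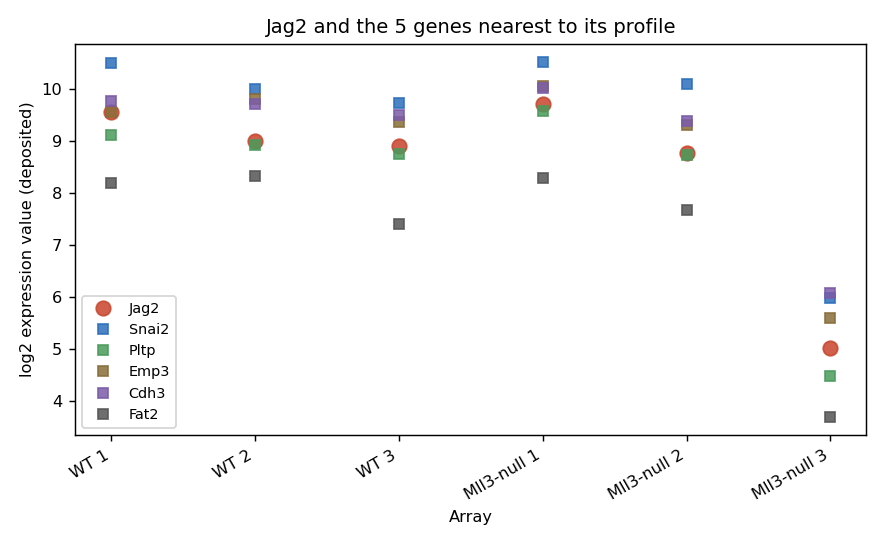
Deposited log2 values (vertical axis) of Jag2 and of the 5 genes nearest to its centred profile on each of the 6 arrays (horizontal axis). All 6 genes have their lowest value on Mll3-null replicate 3, from 3.70 for Fat2 to 6.08 for Cdh3.

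Of a list of 65 other Notch pathway genes 62 had a value, and 0 passed the test in either direction (limma, Benjamini-Hochberg over all genes, as 0% of all genes did). By group means 32 were higher and 30 lower in Mll3-null cells, with a median difference of 0.02 and differences from -0.28 to 0.48. At an unadjusted p under 0.05 there was 1 of 62 (Tle3), against 4.93% of all genes. The groups did not overlap for 3 (Tle3, Itch and Hes3, the last named after its values were seen), against 10.7% of all genes. Hes3 was dim, with a mean of 3.88 over the 6 arrays and a difference of 0.16. A 2-fold difference was reached by 0 of the 62, of which 26 had a mean of at least 7, against 1.15% of all genes. For the 10 genes described before these it was 4, and 0 without Mll3-null replicate 3.

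The 4 pathway genes with the smallest p on the higher side were Tle3, Neurl2, Mib2 and Bmp2k. Tle3, a corepressor of the Groucho family that HES proteins recruit, was at 8.38, 7.999 and 8.45 in WT and at 8.46, 8.74 and 8.84 in Mll3-null cells. Every Mll3-null array exceeded every WT array, replicate 1 by 0.0054, and the difference was 0.40 ± 0.16 (limma unadjusted p = 0.043, adjusted p = 0.84). Mib2, a ubiquitin ligase of the Mind bomb family that acts on ligands, was at 5.79, 5.94 and 6.06 in WT and at 5.94, 6.42 and 6.87 in Mll3-null cells. Bmp2k, a kinase related to AAK1, was at 8.07, 7.89 and 8.21 in WT and at 7.998, 8.61 and 8.98 in Mll3-null cells. Neurl2, of the Neuralized family, was at 3.88, 3.89 and 4.01 in WT and at 4.0005, 4.18 and 4.46 in Mll3-null cells. For Mib2, Bmp2k and Neurl2 replicates 2 and 3 were above all WT arrays and replicate 1 was within the WT range. These genes were picked for their small p, and at least 2 of the 3 Mll3-null arrays exceeded every WT array for 17 of the 62 pathway genes, against 23.5% of all genes.

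On the lower side the smallest p belonged to Itch, Dner, Maml3 and Pofut1. Itch, a ubiquitin ligase that promotes receptor turnover, was at 8.55, 8.59 and 8.70 in WT and at 8.47, 8.46 and 8.48 in Mll3-null cells. These groups did not overlap, but the difference was small, -0.15 ± 0.08 (limma unadjusted p = 0.12, adjusted p = 0.84). Maml3, a Mastermind coactivator of the RBPJ complex, differed by -0.28 ± 0.17, and Dner, a transmembrane protein with EGF repeats, by -0.17 ± 0.10. Dner was dim, with a mean of 3.69 over the 6 arrays. Pofut1, the enzyme that adds O-fucose to Notch, on which LFNG acts, differed by -0.13 ± 0.09. None passed the correction.

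By role, the other pathway genes went both ways. The 6 ubiquitin ligases and trafficking genes that act on ligands differed by -0.03 to 0.48, with 4 higher and 2 lower, and the 4 glycosylation enzymes by -0.13 to 0.11. The 11 inhibitors and turnover genes differed by -0.18 to 0.47, with 6 higher and 5 lower. The 9 measured proteases and gamma-secretase subunits, which release the intracellular part of the receptor, differed by -0.25 to 0.28, with 4 higher and 5 lower. The 18 genes of the nuclear complex and its corepressors had 9 higher and 9 lower, among them Rbpj itself at 8.56, 8.17 and 8.39 in WT and 8.72, 8.17 and 8.38 in Mll3-null cells (named after its values were seen). Rbpj values of the groups were interleaved, with a difference of 0.05 ± 0.17. The 8 other HES and HEY family genes, such as Hes5 and Heyl, differed by -0.10 to 0.16. The 6 other receptors and ligands, which include the endothelial genes Notch4 and Dll4, differed by -0.17 to 0.12, and 3 of them had a mean under 4.

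**Figure D4:**
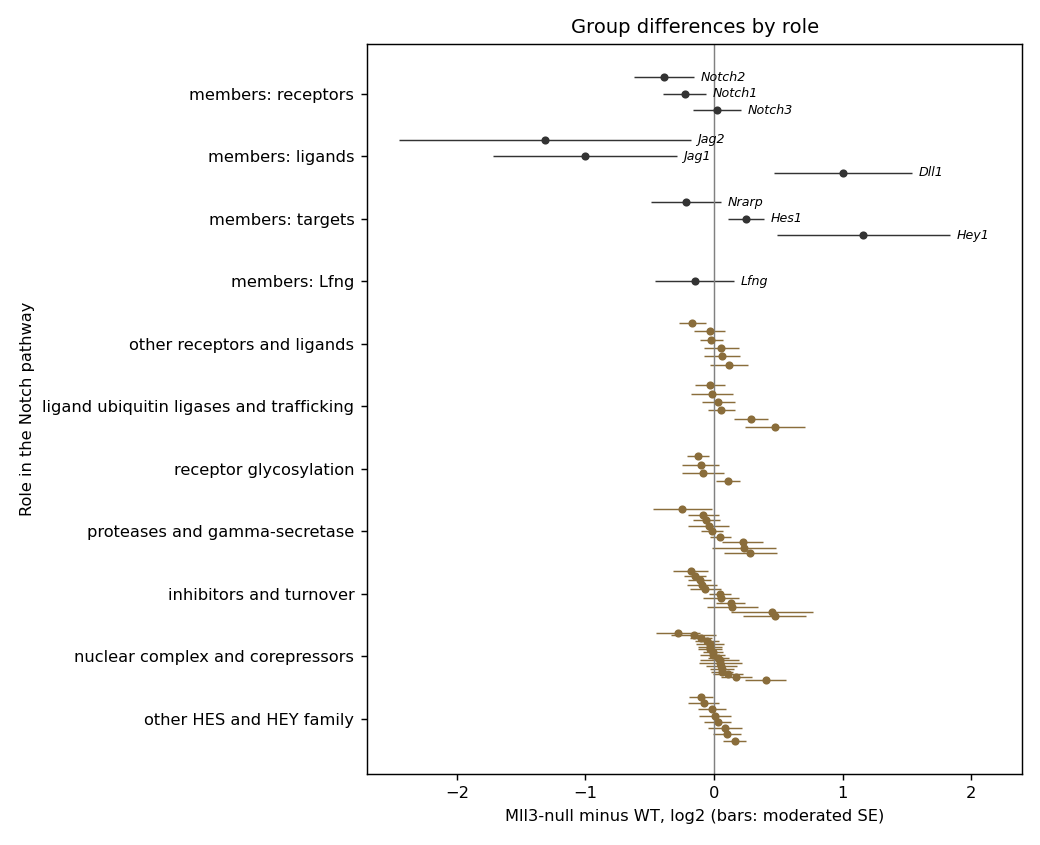
Mll3-null minus WT differences in log2 units (horizontal axis) with the moderated SE as bars, 1 point per gene, grouped by role (vertical axis), the 10 genes in black and the other pathway genes in brown. The ligands and Hey1 spread from -1.32 to 1.16 with wide bars, while the other pathway genes lie between -0.28 and 0.48.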

How the data were processed

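The authors deposited log2 expression values for 41345 probe sets, made with Affymetrix Expression Console per the submitters' processing notes. The sources used here name no version, normalization or annotation. Per the labels, 100 ng of total RNA was used per array. The log2 scale was read from the values (1.72 to 13.56, with array medians of 4.35 to 4.40), so the arrays share a common scale that hides any change of RNA amount per cell. No detection values were used, and precision is limited by the number of arrays.

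Probe sets with exactly 1 symbol in the platform annotation (23521) were used. Each of 22180 genes was represented by its brightest such probe set, by the mean over all 6 arrays. Columns were matched to samples by name, with 0 columns left over. The groups were fitted in R 4.3.3 by limma 3.58.1 (lmFit and eBayes, two-sided, genotype only), adjusted over all genes at 0.05 and tested on simulated data. The simulation drew normal noise with the same SD for both groups and no array standing apart. It therefore does not show how the test behaves with an array such as Mll3-null replicate 3.

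The genes, the lists and the limit of 7 were chosen with earlier results of these data known. Named pathway genes were those past the test or, failing 4, the 4 with the smallest p in each direction. For likeness, the 5 genes nearest to the gene of widest range were named, leaving out predicted genes, small RNAs and olfactory receptors. Alternatives covered normalization, centring, dim genes, the spread model, array weights, probe sets, the replicate block and leaving out arrays.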

Additional observations from a re-analysis of the deposited data

How the results depend on the processing

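Under 15 alternatives, 14 planned and 1 chosen after seeing the data, the count of Notch genes past the adjusted threshold was 0 of 10, that of other pathway genes 0 of 62 and that of all genes 0 each time (limma). At an unadjusted p under 0.05 the 10 genes gave 0 to 3 and all genes 716 to 2742, the upper ends without Mll3-null replicate 1, where Notch2, Dll1 and Hes1 were the 3. Array weights gave 2 (Notch2 and Dll1) and 2504 of all 22180 genes, against 0 and 1093 in the main fit. Leaving out 1 array at a time, the differences ran from -2.25 to 0.089 for Jag2, -0.47 to 0.16 for Lfng, -0.42 to 0.046 for Nrarp and -0.12 to 0.17 for Notch3, so their signs turned; those of the other 6 genes did not. With WT replicate 2 and Mll3-null replicate 3 both left out, Jag2 was at 0.0099 and Lfng at 0.070. The mean of both probe sets gave 0.65 for Dll1. Same-numbered arrays correlated in their deviations at 0.03, 0.08 and 0.31, the last being the highest of all WT and Mll3-null combinations. WT replicate 2 correlated best with Mll3-null replicate 1 (0.22), while WT replicates 1 and 3 correlated best with their own numbers. These values do not settle whether the numbers mark pairs, and the main fit did not use them as pairs. With the replicate block 0 of the 10 genes passed.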
